A study of Mus musculus with 8 samples.

Results

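Matricellular proteins are secreted into the extracellular matrix, where they act less as scaffold than as signals that change how cells hold on to and read that matrix. They bind collagens and fibronectin on one side and integrins, CD47, CD44 or growth factors on the other, and fibroblasts make much of them during wound repair, fibrosis and in tumour stroma. The 10 genes were picked by name as members of this class, with earlier results of these data known, out of 45321 genes quantified. They encode the fasciclin-domain proteins periostin (Postn) and Tgfbi, the thrombospondins Thbs1 and Thbs2, tenascin-C (Tnc), the SPARC family proteins Sparc, Smoc1 and Smoc2, osteopontin (Spp1) and the nidogen-like glycoprotein Sned1. All 10 had reads and passed the filter on low counts.

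The RNA came from untreated fibroblast cultures started from fragments of mouse colon. Fib-dZeb1 cultures carry the Zeb1 del/del genotype, obtained by inducing Cre recombinase in vitro, and Fib-Ctrl cultures are Zeb1 flox/flox, so loxP-flanked alleles underlie both groups. Zeb1 encodes a zinc-finger repressor best known for switching off epithelial genes. Each genotype had 2 lines with 2 replicate libraries each, which gave 4 Fib-dZeb1 and 4 Fib-Ctrl libraries of polyadenylated RNA. The study used mice with Col6a1-Cre or with the tamoxifen-inducible Col1a2-CreERT2, both active in fibroblasts. The labels and methods do not state which driver the sequenced cultures carried, what Fib-Ctrl cultures received during Cre induction, in what way replicates of a line are separate, or the age of the animals. Genotype and Cre treatment therefore cannot be told apart.

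Libraries held 20061193 to 25540529 reads in Fib-dZeb1 and 18852422 to 23143882 in Fib-Ctrl. Zeb1 itself had 18.3, 14.5, 11.4 and 12.8 CPM (counts scaled to a common library size) in Fib-dZeb1, against 93.9, 94.4, 92.1 and 98.5 CPM in Fib-Ctrl. Reads thus remained in every Fib-dZeb1 library, and the genotypes did not overlap. Its log2 fold change was -2.73 (SE 0.15, adjusted p = 4.8e-05). All 9 fibroblast markers had reads in both genotypes, and their summed level was 12625.2 to 24188.4 CPM in Fib-dZeb1 and 41603.5 to 52488.3 CPM in Fib-Ctrl, with Col1a1, Col1a2 and Pdgfrb lower in Fib-dZeb1 and the other 6 not past the test. The 7 epithelial markers summed to 8.02 to 126 CPM in Fib-dZeb1 and 0.103 to 0.641 CPM in Fib-Ctrl, with Epcam and Krt18 higher and Cdx2 at 0 in every library. The 4 mesothelial markers summed to 1.58 to 8.67 CPM in Fib-dZeb1 and 0.0582 to 0.916 CPM in Fib-Ctrl, with Msln higher. Wt1, Upk3b and Lrrn4 had at most 0.772 CPM in any library and were not tested. The mean of Wt1 was lower in Fib-dZeb1 (0.0477 CPM, against 0.392 CPM in Fib-Ctrl), and those of Upk3b and Lrrn4 were higher. Macrophage markers stayed at 3.53 to 4.04 CPM in Fib-dZeb1 and 3.72 to 16.4 CPM in Fib-Ctrl, with Adgre1 at 0, and leukocyte markers reached at most 0.137 CPM in either genotype. In Fib-dZeb1 the sums were 1.17 to 3.96 CPM for endothelial cells, 0.43 to 0.684 CPM for enteric glia and 277 to 341 CPM for smooth muscle and interstitial cells, and in Fib-Ctrl they were 1.34 to 3.07, 0.258 to 2.91 and 467 to 829 CPM in the same order. In the smooth muscle list Ano1 was higher and Cnn1 lower in Fib-dZeb1. The part that these marker differences have in the results on the members was not tested. Fib-dZeb1 line 1 had Xist reads and none of Ddx3y, whereas the other 3 lines had Ddx3y and no Xist, so sex differs between lines.

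Together the 10 genes took a smaller share of the transcriptome in the cultures with deleted Zeb1. They held 1.40, 0.918, 1.11 and 0.85% of the reads of the Fib-dZeb1 libraries, against 3.01, 2.49, 2.30 and 1.48% in Fib-Ctrl. The highest Fib-dZeb1 library thus lay just under the lowest Fib-Ctrl library. Most of these reads were those of Thbs1, Sparc and Postn (879355, 571162 and 311736 in Fib-Ctrl), so the sum says little about the other members. Thbs1, Sparc, Smoc1 and Sned1 fell, no member rose, and Postn, Tnc, Thbs2, Smoc2, Spp1 and Tgfbi did not pass the test. The test was edgeR's quasi-likelihood test over 12963 genes with Benjamini-Hochberg adjustment, called at an adjusted p under 0.05, and it called 8.65% of all genes lower and 7.54% higher in Fib-dZeb1. Thus 4 of 10 members were lower, beside 8.65% of all genes. The members and the lists below were chosen with earlier results of these data known, so such shares are no test of a class. No member was higher in this test. With an unadjusted p under 0.05, 2 (Smoc2 and Thbs2) had a positive and 5 a negative fold change. The share of all genes at that unadjusted threshold was not counted. DESeq2 called 1 member higher (Smoc2, adjusted p = 0.0367). The median log2 fold change of the 10 was -1.31, beside -0.005 over all genes tested. In the same 4 genes every Fib-dZeb1 library lay below every Fib-Ctrl library, which held for 12.3% of all genes, and no member showed the opposite separation, found in 12% of all genes. In bulk RNA, fewer cells of a kind and less RNA per cell cannot be told apart. All 4 calls are lost when the reads of both replicates are summed so that 2 lines face 2 lines (adjusted p = 0.121 to 0.207), and also with limma-voom when the correlation within lines is estimated (adjusted p = 0.0562 to 0.189). Without Fib-dZeb1 line 1, the line with Xist reads, all 4 were still called (adjusted p = 0.0152 to 0.0436).

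**Figure D1:**
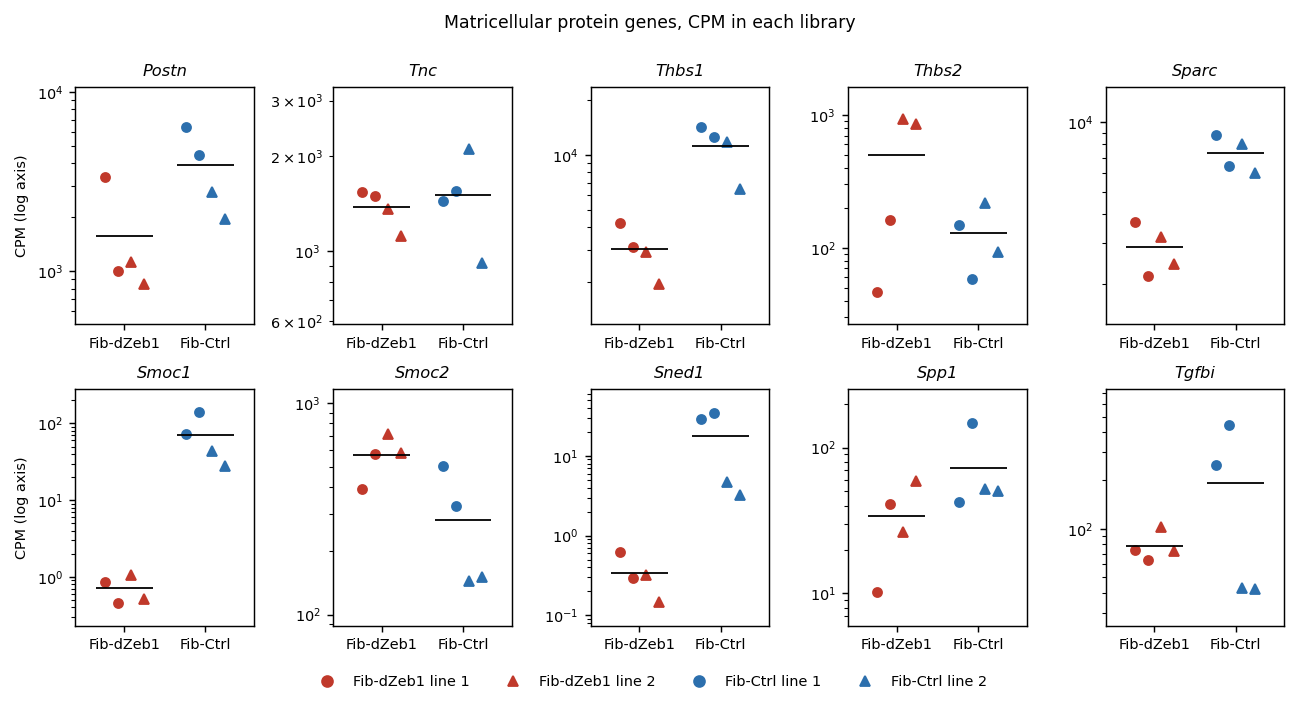
CPM of the 10 matricellular protein genes in each library, on log axes that differ between panels. Points are libraries, circles are line 1 and triangles line 2, and black lines are the genotype means. Thbs1, Sparc, Smoc1 and Sned1 do not overlap between Fib-dZeb1 and Fib-Ctrl, the Thbs2 libraries of Fib-dZeb1 line 2 stand above all others (928 and 858 CPM), and those of Tgfbi split by line within Fib-Ctrl (42.7 and 42 CPM in line 2, 250 and 440 CPM in line 1).

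Levels per transcript length (TPM, which divides reads by transcript length before scaling) place the members on a common scale. Sparc was the most abundant in both genotypes, at 2593.7 ± 693 TPM in Fib-dZeb1 and 5860.5 ± 1193.6 TPM in Fib-Ctrl (SD, n = 4 each), which made it the gene of rank 44 and rank 6 by mean TPM. In Fib-dZeb1 it was followed by Postn (997 ± 761 TPM), Thbs1 (975 ± 305), Smoc2 (390 ± 93), Tnc (358 ± 49.2), Thbs2 (157 ± 146), Tgfbi (57.4 ± 13.4), Spp1 (52 ± 31.4), Smoc1 (0.405 ± 0.164) and Sned1 (0.28 ± 0.386). Only 2 steps of that order were free of overlap between neighbours, from Thbs1 down to Smoc2 and from Spp1 down to Smoc1. In Fib-Ctrl the order after Sparc was Thbs1 (3189 ± 1000 TPM), Postn (2194 ± 1149.5), Tnc (349 ± 114), Smoc2 (174 ± 110), Tgfbi (127 ± 124), Spp1 (99.8 ± 66.4), Thbs2 (36.2 ± 19.7), Smoc1 (35.1 ± 24.5) and Sned1 (3.39 ± 3.16). There the steps free of overlap were Sparc to Thbs1, Postn to Tnc, Spp1 to Thbs2 and Smoc1 to Sned1. Smoc1 was a trace in Fib-dZeb1, whereas in Fib-Ctrl it was close to Thbs2, and its rank among all genes was 13800 in Fib-dZeb1 and 4084 in Fib-Ctrl. The Sned1 mean in Fib-dZeb1 is inflated by 0.857 TPM in line 1 replicate 2, where 2 reads were assigned to a short retained-intron transcript, and CPM is the safer scale for this gene.

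Smoc1 showed the steepest loss. It encodes a secreted calcium-binding relative of SPARC that antagonizes BMP signals in Xenopus, and the gene lies on chromosome 12 (GRCm38, 81026808 to 81186414, plus strand). Smoc1 had 0.859, 0.46, 1.05 and 0.514 CPM in the Fib-dZeb1 libraries, against 71.8, 141, 43.2 and 27.5 CPM in Fib-Ctrl. Every Fib-dZeb1 library was near the floor of detection, with 66 reads over all 4, against 5579 reads in Fib-Ctrl. The log2 fold change was -6.63 (SE 0.62, 98.8-fold, adjusted p = 0.0009), and it held its sign and call without each of the 4 lines in turn (-7.22 to -5.62). In Fib-Ctrl the transcript Smoc1-201 made up 82.57% of Smoc1 TPM, and the shares in Fib-dZeb1 rest on too few reads to be read.

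Sned1 followed the same course at a lower level. This secreted glycoprotein carries a nidogen domain and EGF-like repeats, and its gene lies on chromosome 1 (93235841 to 93301065, plus strand). Sned1 had 0.621, 0.293, 0.319 and 0.147 CPM in Fib-dZeb1, against 28.5 and 34.8 CPM in Fib-Ctrl line 1 and 4.72 and 3.2 CPM in Fib-Ctrl line 2. The genotypes were separated, and the Fib-Ctrl lines also stood apart from each other. Over 31 reads in Fib-dZeb1 and 1442 in Fib-Ctrl the log2 fold change was -5.70 (SE 0.94, 51.8-fold, adjusted p = 0.00716). It was -3.52 without Fib-Ctrl line 1. Without Fib-dZeb1 line 2 it was -5.28 with the call lost (adjusted p = 0.0728), and the call was also lost with limma-trend on log2(TPM + 1), where the change of such a low gene is compressed to -1.47 (adjusted p = 0.0803).

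Thbs1, the thrombospondin that activates latent TGF-beta and signals through CD47, was the member with the most reads in Fib-Ctrl. The gene lies on chromosome 2 (118111876 to 118127133, plus strand). It had 4217, 3130.4, 2944.1 and 1963.6 CPM in Fib-dZeb1, against 14140.3, 12540.0, 11724.7 and 6481.1 CPM in Fib-Ctrl. The lowest Fib-Ctrl library still exceeded the highest Fib-dZeb1 library. This gave a log2 fold change of -1.87 (SE 0.29, 3.66-fold, adjusted p = 0.00625), between -2.19 and -1.58 without each line in turn. Practically all of its TPM came from the transcript Thbs1-201 in every library (99.73% or more).

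Sparc, also called osteonectin, binds collagen and takes part in the assembly of collagen fibrils. Its gene lies on chromosome 11 (55394500 to 55423183, minus strand). Sparc had 3717.4, 2163.5, 3200.3 and 2447.4 CPM in Fib-dZeb1, against 8767.8, 6449.5, 8043.5 and 6001.4 CPM in Fib-Ctrl. In both genotypes replicate 1 of each line was above replicate 2, and the lines hardly differed. The log2 fold change of -1.34 (SE 0.20, 2.54-fold, adjusted p = 0.00568) had the smallest error of the 10 members and moved only between -1.41 and -1.29 without each line in turn. The transcripts Sparc-201 and Sparc-202 made up 66.17% and 33.72% of Sparc TPM in Fib-dZeb1 and 67.35% and 32.56% in Fib-Ctrl, and these shares overlapped between the genotypes.

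ZEB1 is known to bind E-box motifs of the form CAGGTG and CAGGTA, and the RefSeq start windows of the members (250 bases before to 50 after the annotated start, GRCm38.p6) were searched for both on both strands. Windows were matched for 7 of the 10 members, 10 windows in all; Thbs1, Smoc1 and Smoc2 had none and were not searched. CAGGTG, or its reverse complement CACCTG, was found in 1 window each of Sparc and Spp1, and in 20.2% of all 32851 windows. CAGGTA, or TACCTG, was found in the window of Thbs2, and in 12% of all windows. Of the members that fell, only Sparc and Sned1 could thus be searched. The Sparc window is shown because it held a match and that of Sned1 did not. The Sparc motif, in capitals, begins at the last base before the annotated start of that window. This start lies inside the span of the Sparc gene given above, so it is not the outermost start of the gene. Printed are 145 bases before and 5 after it, on the minus strand at chr11:55420076-55420225.
Sparc start window: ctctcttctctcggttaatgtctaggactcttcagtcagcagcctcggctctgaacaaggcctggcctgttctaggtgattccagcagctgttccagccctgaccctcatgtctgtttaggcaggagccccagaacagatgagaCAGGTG
A match is a string of letters only, and binding was not measured here.

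**Figure D2:**
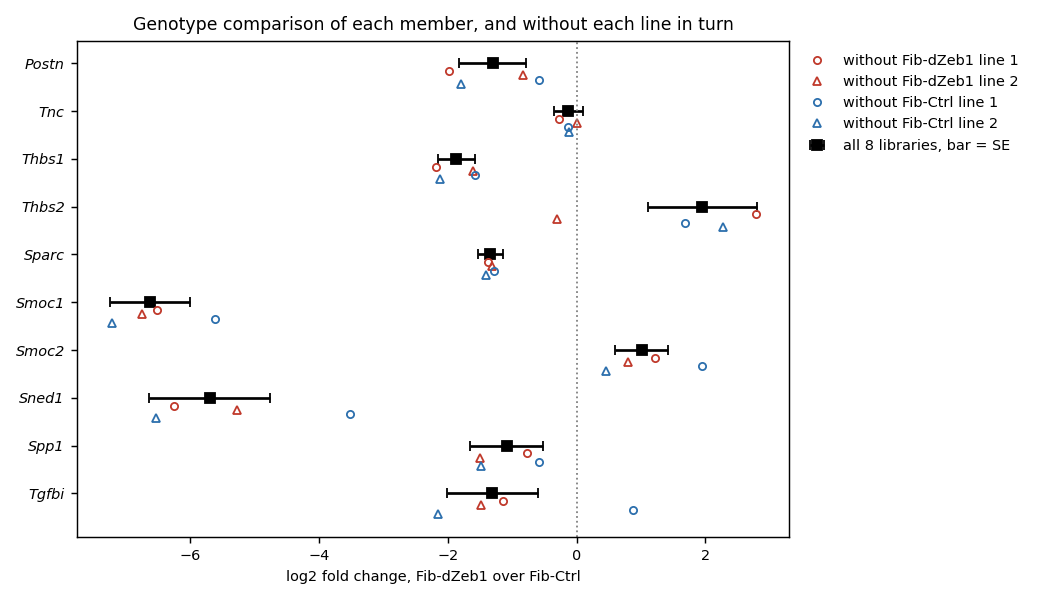
Log2 fold change of Fib-dZeb1 over Fib-Ctrl for each member. Black squares with bars are the estimates from all 8 libraries with 1 SE on either side, and open symbols are the estimates without both libraries of a line. Thbs1, Sparc, Smoc1 and Sned1 stay below 0 whichever line is left out, whereas Thbs2 turns to -0.31 without Fib-dZeb1 line 2, Tgfbi to 0.88 without Fib-Ctrl line 1 and Tnc to 0.01 without Fib-dZeb1 line 2.

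Postn encodes periostin, a collagen-binding partner of integrins that marks activated fibroblasts, and lies on chromosome 3 (54361109 to 54391037, plus strand). It had 3345.3, 1002.6, 1120.9 and 844 CPM in Fib-dZeb1, against 6397.7, 4459.2, 2763.4 and 1957.9 CPM in Fib-Ctrl. A single Fib-dZeb1 library, line 1 replicate 1, reached into the range of Fib-Ctrl. Its log2 fold change of -1.30 (SE 0.52) did not pass (adjusted p = 0.12). Without that library it was -1.97 with an adjusted p of 0.0191. It also passed when line and replicate number together were fitted as a block (-1.40, adjusted p = 0.0221). These numbers could not be shown to pair the libraries, and line 1 differs in sex between the genotypes. It shrank to -0.84 without Fib-dZeb1 line 2 (adjusted p = 0.447) and to -0.59 without Fib-Ctrl line 1 (adjusted p = 0.504), and the adjusted p was 0.377 with the reads of each line summed and 0.3 with limma-voom and a correlation within lines.

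The make-up of Postn transcripts separated the genotypes although its total did not. The transcript Postn-204 accounted for 59.66, 60.83, 50.11 and 44.41% of Postn TPM in Fib-dZeb1, against 73.11, 78.51, 80.74 and 83.49% in Fib-Ctrl. Postn-204 skips a pair of coding exons near the 3′ end, of which Postn-203 keeps the upstream and Postn-201 the downstream, and alternative use of exons in this region is a known feature of periostin. Transcripts with the upstream exon, exon 17 of Postn-203 (chr3:54380412-54380492, 81 bases, 27 codons), made up 19.43, 16.60, 21.58 and 23.22% in Fib-dZeb1 and 11.46, 7.01, 7.16 and 4.94% in Fib-Ctrl. Transcripts with the downstream exon, exon 20 of Postn-201 (chr3:54385671-54385754, 84 bases, 28 codons), made up 18.73, 20.09, 25.85 and 29.84% in Fib-dZeb1 and 13.92, 12.60, 8.53 and 9.31% in Fib-Ctrl. For each exon all 4 Fib-dZeb1 libraries lay above all 4 Fib-Ctrl libraries. Both exons keep the reading frame, and they are printed as read from the GENCODE transcripts, with the exon in capitals and 10 bases of the neighbouring exons in lower case.
Postn 81-base exon: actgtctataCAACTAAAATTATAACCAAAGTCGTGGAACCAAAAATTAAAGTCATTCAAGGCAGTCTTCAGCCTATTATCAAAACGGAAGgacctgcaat
Postn 84-base exon: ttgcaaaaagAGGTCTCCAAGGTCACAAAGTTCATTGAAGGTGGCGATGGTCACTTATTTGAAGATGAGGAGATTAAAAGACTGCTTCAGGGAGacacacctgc
These shares are estimates by Salmon, carry no test and describe transcripts that also differ slightly at their ends.

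Tnc, tenascin-C, is a large modulator of cell adhesion that also signals through integrins, and lies on chromosome 4 (63959785 to 64047015, minus strand). Its total hardly differed, with 1536.8, 1497.2, 1363.9 and 1120.0 CPM in Fib-dZeb1 and 1440.7, 1547.4, 2115.2 and 921 CPM in Fib-Ctrl. The groups overlapped throughout. Its log2 fold change was -0.13 (SE 0.23, adjusted p = 0.746), the smallest of the 10, and its sign was not fixed, since it was 0.06 with scaling by library size alone.

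As in Postn, the transcripts of Tnc were split differently. Tnc-203, which keeps exon 14 (chr4:63984460-63984732, 273 bases, 91 codons), accounted for 13.49, 14.92, 14.46 and 14.83% of Tnc TPM in Fib-dZeb1, against 2.27, 4.31, 7.72 and 8.53% in Fib-Ctrl. The Fib-dZeb1 libraries were close to each other and all above Fib-Ctrl, where line 2 was above line 1. The remainder was almost wholly Tnc-204, which lacks this exon and starts from an additional noncoding exon. Use of exon 14 and choice of start therefore cannot be told apart from these shares, which are Salmon estimates and carry no test. Tenascin-C is known for exons that encode whole fibronectin-type repeats and are kept or skipped between tissues. The exon is printed in capitals on the minus strand, with 10 flanking bases in lower case.
Tnc 273-base exon: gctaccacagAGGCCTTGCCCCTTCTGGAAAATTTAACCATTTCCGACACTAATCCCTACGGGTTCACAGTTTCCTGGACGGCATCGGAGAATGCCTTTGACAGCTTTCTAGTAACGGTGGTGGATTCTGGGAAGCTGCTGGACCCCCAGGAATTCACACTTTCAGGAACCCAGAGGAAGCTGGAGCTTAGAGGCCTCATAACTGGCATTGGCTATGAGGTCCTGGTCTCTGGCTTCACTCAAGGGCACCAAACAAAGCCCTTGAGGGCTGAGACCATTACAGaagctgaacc
In 4 members (Postn, Tnc, Sparc and Spp1) a main transcript shared the gene with others at 5% or more and every library had at least 100 reads. The share of the main transcript did not overlap between genotypes in 2 of these 4, Postn and Tnc. Thbs2, Smoc2 and Tgfbi each have 1 transcript in the files. Over all 5107 genes that met the same conditions, it did not overlap in 5.4%.

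**Figure D3:**
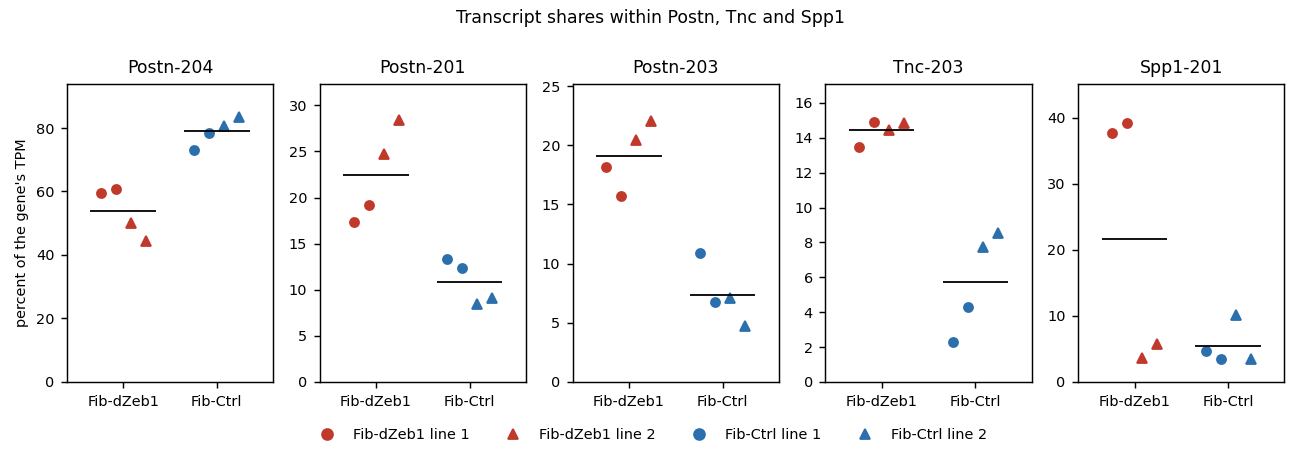
Share of 5 transcripts in the TPM of their gene, in percent, for each library, on axes that start at 0 and differ between panels. Circles are line 1, triangles line 2 and black lines genotype means. Postn-204 is lower (44.41 to 60.83% in Fib-dZeb1 and 73.11 to 83.49% in Fib-Ctrl) and Postn-201, Postn-203 and Tnc-203 are higher in every Fib-dZeb1 library, and Spp1-201 is high in Fib-dZeb1 line 1 alone.

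Thbs2, a thrombospondin known for restraining vessel growth and shaping collagen fibrils, lies on chromosome 17 (14665500 to 14694235, minus strand). It had 46.6 and 161 CPM in Fib-dZeb1 line 1 and 928 and 858 CPM in Fib-dZeb1 line 2, against 148, 58.7, 218 and 92.4 CPM in Fib-Ctrl. The high values were those of line 2, and line 1 stayed within or below the range of Fib-Ctrl. Across all 8 libraries the log2 fold change was 1.95 (SE 0.85, adjusted p = 0.15). It was 2.79 without Fib-dZeb1 line 1 (adjusted p = 0.0199) and -0.31 without Fib-dZeb1 line 2 (adjusted p = 0.805), so its sign rests on which line represents Fib-dZeb1. Within Fib-dZeb1, line 2 was 8.58-fold above line 1 (log2 3.10, SE 0.70, adjusted p = 0.0424). With the expression filter, Thbs2 alone of the 10 members differed between the Fib-dZeb1 lines, where 6.87% of all genes were called, and with no filter 5 members did, against 10.4% of all genes.

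Smoc2, the paralog of Smoc1, had a positive estimate. The gene lies 260.7 kb from Thbs2 on chromosome 17 (14279506 to 14404790, plus strand). Smoc2 had 394, 574, 716 and 583 CPM in Fib-dZeb1, against 503 and 325 CPM in Fib-Ctrl line 1 and 144 and 150 CPM in Fib-Ctrl line 2. Fib-dZeb1 was above Fib-Ctrl line 2 throughout but overlapped Fib-Ctrl line 1. The log2 fold change was 1.01 (SE 0.41) with an adjusted p of 0.121. Without Fib-Ctrl line 1 it was 1.95 (adjusted p = 0.0054), and without Fib-Ctrl line 1 replicate 1 it was 1.45 (adjusted p = 0.0381). Without Fib-Ctrl line 2, by contrast, it was 0.45 (adjusted p = 0.295). DESeq2 gave 1.02 (adjusted p = 0.0367) and limma-trend on TPM 1.34 (adjusted p = 0.0457).

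Spp1, osteopontin, is a ligand of integrins and CD44 that macrophages and fibroblasts secrete, and lies on chromosome 5 (104435118 to 104441050, plus strand). It had 10.3, 41, 26.2 and 58.9 CPM in Fib-dZeb1, against 42.6, 147, 51.6 and 50.5 CPM in Fib-Ctrl. A single library stood out in Fib-Ctrl, line 1 replicate 2, and the groups overlapped. Its log2 fold change was -1.09 (SE 0.56, adjusted p = 0.214), and -0.50 (adjusted p = 0.535) without that library. The macrophage markers summed to 16.4 CPM or less in every library. Lyz2 had up to 13.2 CPM in Fib-Ctrl, and Adgre1 was at 0 throughout. Which cells the Spp1 reads came from was not tested. Spp1-201, which skips a 3-base coding exon that Spp1-202 keeps (chr5:104436901-104436903), made up 37.77 and 39.30% of Spp1 TPM in Fib-dZeb1 line 1 but 3.63 and 5.71% in Fib-dZeb1 line 2, against 3.40 to 10.19% in Fib-Ctrl. These shares are estimates by Salmon and carry no test, and in Fib-dZeb1 line 1 they rest on 215 and 979 Spp1 reads. The 3-base exon is 1 codon long and is printed in capitals with the 14 bases on either side of it in Spp1-202.
Spp1 3-base exon: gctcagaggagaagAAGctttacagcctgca

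Tgfbi, a fasciclin-domain protein induced by TGF-beta that links collagens to integrins, lies on chromosome 13 (56609523 to 56639562, plus strand). It had 73.7, 63.8, 102 and 72.8 CPM in Fib-dZeb1, against 250 and 440 CPM in Fib-Ctrl line 1 and 42.7 and 42 CPM in Fib-Ctrl line 2. All 4 Fib-dZeb1 libraries lay between the Fib-Ctrl lines. The log2 fold change was -1.31 (SE 0.71, adjusted p = 0.237). It was -2.15 without Fib-Ctrl line 2 (adjusted p = 0.00575) and 0.88 without Fib-Ctrl line 1 (adjusted p = 0.0311), called in opposite directions, so that these cultures allow no statement on its direction.

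The lines of a genotype were then compared, since they show how much these genes vary among cultures of the same genotype. Within Fib-Ctrl, 4 of 10 members differed between line 2 and line 1, against 17% of all genes, and with no expression filter 8 did, against 16.7%. All 4 called with the filter were lower in line 2. Tgfbi was 8.14-fold lower (log2 -3.02, SE 0.29, adjusted p = 0.00151) and Sned1 was nearly as much lower (log2 -3.00, SE 0.34, adjusted p = 0.00251). Smoc1 averaged 35.3 CPM in line 2 and 106 CPM in line 1 (log2 -1.59, SE 0.37, adjusted p = 0.0287), and Smoc2 averaged 147 CPM in line 2 and 414 CPM in line 1 (log2 -1.50, SE 0.25, adjusted p = 0.00918). Of these, Smoc1 and Sned1 fell with genotype by more than they differed between the Fib-Ctrl lines, whereas Tgfbi and Smoc2 did not pass the genotype test. Within Fib-dZeb1 the same 4 genes had log2 differences of 0.35 (Tgfbi), -0.98 (Sned1), 0.22 (Smoc1) and 0.43 (Smoc2), with adjusted p of 0.322 to 0.877. Whether the line differences themselves differ between genotypes was not tested. Sparc was the steadiest member across lines, at -0.06 (SE 0.30) in Fib-dZeb1 and -0.12 (SE 0.30) in Fib-Ctrl. Postn was lower in line 2 of both genotypes, by a log2 of -1.15 (SE 0.50, adjusted p = 0.204) in Fib-dZeb1 and -1.20 (SE 0.50, adjusted p = 0.145) in Fib-Ctrl, neither past the test. These p-values rest on 2 replicates a line and measure only the spread between them, which may be technical.

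**Figure D4:**
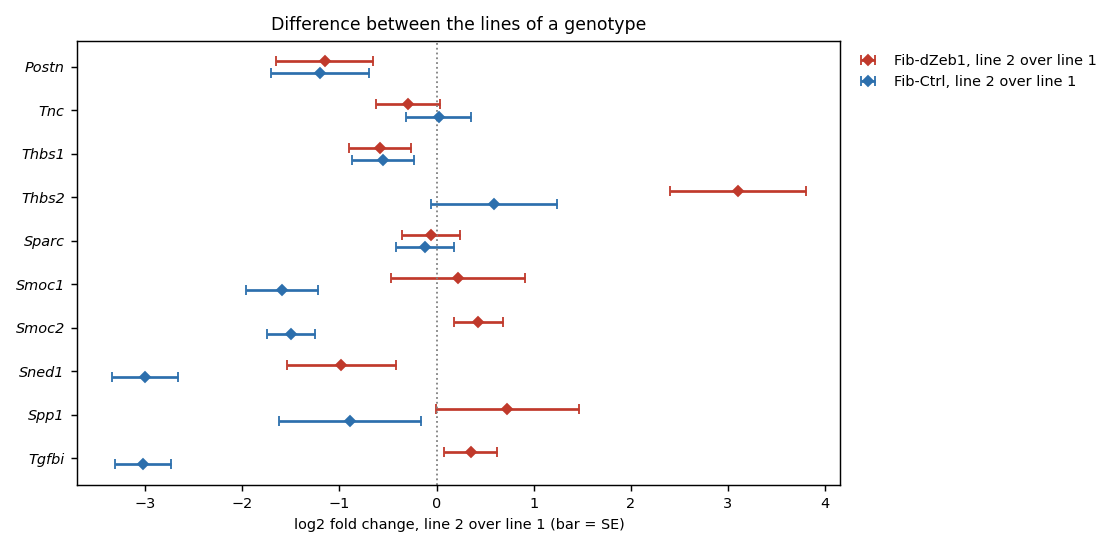
Log2 fold change of line 2 over line 1 within each genotype for each member, with bars of 1 SE on either side. Thbs2 stands at 3.10 in Fib-dZeb1, Tgfbi and Sned1 stand at -3.02 and -3.00 in Fib-Ctrl, and Sparc is near 0 in both.

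Relatives of the members were looked at next, 23 genes of the same protein families. Of these 12 passed the filter, and none was called higher or lower by edgeR. With an unadjusted p under 0.05, 1 had a positive and 6 a negative fold change. The share of all genes at that unadjusted threshold was not counted, here or for the other lists. DESeq2 called 1 higher and 4 lower, beside 1544 higher and 1670 lower over all genes. Leaving out Fib-dZeb1 line 1 replicate 1 gave 3 lower calls, and 1 was called lower after leaving out either replicate 1 of Fib-Ctrl line 1 or replicate 2 of Fib-Ctrl line 2. Their median log2 fold change was -0.75. In the CCN family, integrin-binding matricellular proteins, the summed level was 731 to 1484.4 CPM in Fib-dZeb1 and 1723.3 to 3611.3 CPM in Fib-Ctrl, without overlap. Each CCN gene on its own overlapped between the genotypes, and none was called. Log2 fold changes were -3.46 for Ccn5 and -0.58 for Ccn4, but 0.17 for Ccn1 and 3.87 for Ccn3. Ccn2 (connective tissue growth factor) had 199 to 568 CPM in Fib-dZeb1 and 369 to 2544.8 CPM in Fib-Ctrl (log2 fold change -1.91, SE 0.64, adjusted p = 0.0755). Fstl1, a follistatin-like member of the SPARC family, had 746 to 1454.4 CPM in Fib-dZeb1 and 1095.2 to 2063.6 CPM in Fib-Ctrl (-0.63, SE 0.25, adjusted p = 0.123). The other thrombospondins and tenascins were far below Thbs1 and Tnc, with sums of 12.6 to 22.5 CPM in Fib-dZeb1 and 17.8 to 60.0 CPM in Fib-Ctrl for 3 thrombospondins, and of 2.97 to 5.63 CPM in Fib-dZeb1 and 3.25 to 25.5 CPM in Fib-Ctrl for 3 tenascins. The bone-related SIBLING relatives of Spp1 were all but silent, with Ibsp and Mepe at 0 reads.

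Among 21 receptors known to bind matricellular proteins, 19 were tested, 3 fell and 2 rose, where 8.65% of all genes were lower and 7.54% higher. Their median log2 fold change was -0.16. Itga9, the integrin subunit that binds tenascin-C and osteopontin, had 0.954 to 4.27 CPM in Fib-dZeb1 and 30.0 to 47.7 CPM in Fib-Ctrl (log2 fold change -3.93, SE 0.43, adjusted p = 0.00161). Lrp1, which takes up thrombospondins from the cell surface, had 1152.7 to 1512.4 CPM in Fib-dZeb1 and 2800.7 to 3569.1 CPM in Fib-Ctrl (-1.25, SE 0.13, adjusted p = 0.00134). The heparan sulfate proteoglycan Sdc1 had 79.6 to 136 CPM in Fib-dZeb1 and 224 to 304 CPM in Fib-Ctrl (-1.19, SE 0.19, adjusted p = 0.0067). The laminin-binding integrin subunit Itga6 and Cd47, a receptor of Thbs1, rose. Itga6 had 22.3 to 112 CPM in Fib-dZeb1 and 8.11 to 26.7 CPM in Fib-Ctrl (2.31, SE 0.53, adjusted p = 0.0225), and Cd47 had 138 to 185 CPM in Fib-dZeb1 and 77.7 to 124 CPM in Fib-Ctrl (0.69, SE 0.16, adjusted p = 0.0251). No receptor was called higher with limma-voom and a correlation within lines, which kept 3 lower calls, and none in either direction with the reads of each line summed. Nor was any called higher without Fib-dZeb1 line 2 or either of its libraries, without Fib-dZeb1 line 1 replicate 2 or without Fib-Ctrl line 2 replicate 1, and 1 was without any of the other 3 Fib-Ctrl libraries. The remaining αv and β1 integrin subunits through which most members act, Itgav and Itgb1, did not pass, at log2 fold changes of 0.15 (adjusted p = 0.418) and -0.41 (adjusted p = 0.249).

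Of 14 collagens, proteoglycans and matrix enzymes that bind or process them, 8 fell and none rose. The test called 8.65% of all genes lower and 7.54% higher. The median log2 fold change of the 14 was -1.17. With an unadjusted p under 0.05, 1 of the 14 (Bmp1) had a positive and 9 a negative fold change. DESeq2 called none higher. With the replicate number as a block, with scaling by library size alone and with limma-trend on TPM, 1 was called higher. The largest drops were those of the crosslinking transglutaminase Tgm2 (-2.50, adjusted p = 0.00838), Col5a1 (-2.10, adjusted p = 0.0044), the proteoglycan versican, Vcan (-1.83, adjusted p = 0.0197), and Col1a2 (-1.76, adjusted p = 0.00633). Col1a1, Lox, Bgn and Fn1 fell as well. The count of lower calls was 4 without Fib-dZeb1 line 2, 5 without Fib-dZeb1 line 1 replicate 2 or without Fib-Ctrl line 1, 1 with limma-voom and a correlation within lines, and 0 with the reads of each line summed. TGF-beta, the growth factor that induces Postn, Tnc and Tgfbi in many cells, was covered by 10 genes for ligands, receptors and SMADs. Only Tgfbr3 (-2.30, SE 0.52, adjusted p = 0.0213) and Tgfbr1 (-0.55, SE 0.13, adjusted p = 0.0223) fell, 2 of 10 against 8.65% of all genes, and both calls were lost with limma-voom and a correlation within lines and with the reads of each line summed. None rose. With an unadjusted p under 0.05, 2 (Smad3 and Tgfb1) had a positive and 3 a negative fold change. DESeq2 called 1 of the 10 higher. Neither fall was called without either library of Fib-dZeb1 line 2, and 1 was when replicate 2 of Fib-Ctrl line 1 or replicate 1 of Fib-Ctrl line 2 was left out. The median was -0.34.

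**Figure D5:**
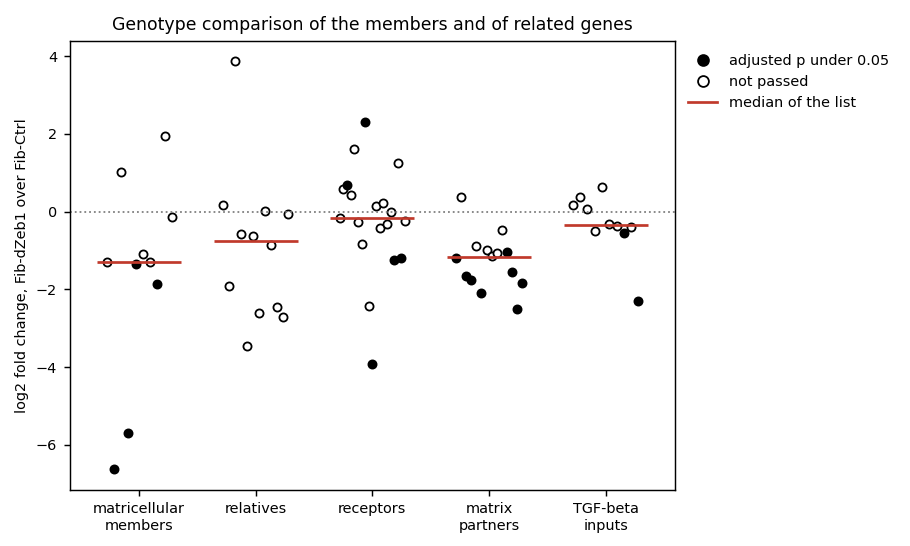
Log2 fold change of Fib-dZeb1 over Fib-Ctrl for the 10 members and the tested genes of 4 related lists. Each point is a gene, filled where the adjusted p is under 0.05, and red lines are list medians. The medians are -1.31 for the members, -0.75 for relatives, -0.16 for receptors, -1.17 for matrix partners and -0.34 for TGF-beta inputs.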

How the data were processed

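Polyadenylated RNA of 8 cultures was sequenced. The authors ran the nf-core RNA-seq pipeline 3.11.0 with STAR and Salmon on GRCm38 (tool versions and strand setting: not given in the sources used here) and tested genotype with DESeq2. The deposited estimated counts per transcript were not normalized, and the deposited TPM scale read density to a fixed total. Estimated counts and TPM of 109617 transcripts were summed to 45321 genes with GENCODE M21, which matched 98.72% of transcripts, and counts were rounded. Unmatched transcripts held at most 0.303% of reads. No columns of other samples were present.

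Genotype was tested with edgeR 4.0.16 (R 4.3.3; quasi-likelihood, expression filter by genotype, TMM, Benjamini-Hochberg at 0.05), and lines with a mean per line. SEs come from the coefficient and its F statistic. CPM are TMM-scaled. Scripts were tested on simulated data. The simulated libraries were independent, with no line effect in the genotype fits, so false calls from correlated libraries of a line were not measured. Counts of replicate libraries disagreed beyond sampling noise, and each library was taken as 1 sample, although p-values then measure the spread between libraries of 2 cultures a genotype. Alternatives used DESeq2 1.42.0, limma 3.58.1, other scalings and left-out libraries or lines; shares of reads in place of TPM for transcripts were added after seeing the data. Members and gene lists were chosen with earlier results of these data known. Named genes were Zeb1, the members, from each list up to 4 rising and 4 falling genes (or, with none called, the 2 most abundant), and transcripts of at least 20% share. Tnc-203, Postn-203, Ccn1 and the genes called by unadjusted p were named after their values were seen. Depth limits Smoc1 and Sned1 in Fib-dZeb1, with 66 and 31 reads. As the strand setting was not given, whether reads of overlapping genes were told apart by strand is not known. Sequences are from GENCODE M21 and RefSeq (GRCm38.p6).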

Additional observations from a re-analysis of the deposited data

Results flagged for a closer look

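In 22 groups of 4 libraries (the 10 members and Zeb1 in each genotype), the gap between the most distant library and its nearest neighbour was set against the range of the group and compared with Dixon's critical value. Chance alone would pick about 1 group in 20. Postn in Fib-dZeb1 line 1 replicate 1 had 3345.3 CPM, far above the next Fib-dZeb1 library at 1120.9 CPM (gap 0.889 of the range). Spp1 in Fib-Ctrl line 1 replicate 2 had 147 CPM, with the next Fib-Ctrl library at 51.6 CPM (gap 0.913 of the range).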

How the results depend on the processing

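The falls of Thbs1, Sparc and Smoc1 kept their direction under all 21 alternatives and lost their call only where the line was the unit of replication; Sned1 kept its direction and lost its call there, with limma-trend on TPM and without Fib-dZeb1 line 2. Scaling by library size alone moved the median of all genes by 0.178 (log2), called 2272 genes higher and 719 lower, turned Tnc to 0.06, and gave 4 higher receptors, 1 higher matrix partner, and 3 higher and 1 lower TGF-beta inputs. DESeq2 called 1544 genes higher, with 1 higher member, 1 higher and 4 lower relatives, 4 higher receptors and 1 higher TGF-beta input. Limma-trend on log2(TPM + 1) called 1994 genes higher and 725 lower, turned Tnc to 0.09, and gave 1 higher member, 1 lower relative, 4 higher receptors, 1 higher matrix partner, and 3 higher and 1 lower TGF-beta inputs.

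With the reads of each line summed, 9 genes were higher and 7 lower, and 0 members, receptors, matrix partners or TGF-beta inputs were called. Limma-voom with a correlation of 0.543 within lines called 114 genes higher and 146 lower, 0 members, 0 higher receptors, 1 lower matrix partner and 0 TGF-beta inputs. Without Fib-dZeb1 line 2, 384 genes were higher and 433 lower, with 0 higher receptors, 4 lower matrix partners and 0 lower TGF-beta inputs, and Tnc turned to 0.01 and Thbs2 to -0.31. Without Fib-dZeb1 line 1, 1 member (Thbs2) was higher, and 1 relative was higher and 1 lower. Without Fib-Ctrl line 1, 2 members (Smoc2, and Tgfbi at 0.88) were higher, with 1 lower relative, 4 higher and 5 lower receptors, 5 lower matrix partners and 1 lower TGF-beta input. Without Fib-Ctrl line 2, 3 relatives were lower. Over the 8 fits that each left out 1 library, 476 to 1011 genes were higher and 508 to 1141 lower (fewest without Fib-dZeb1 line 2 replicate 2), with 0 to 1 members higher, 4 to 5 lower, 0 to 3 relatives lower, 0 to 2 receptors higher, 5 to 8 matrix partners lower and 0 to 3 TGF-beta inputs lower. Tnc turned to 0.08 without Fib-Ctrl line 2 replicate 1. With no expression filter, 5 members differed between the Fib-dZeb1 lines (10.4% of all genes) and 8 between the Fib-Ctrl lines (16.7%). The causes of these moves were not tested.

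Replicate numbers were checked for pairing. Across genotypes, same-numbered libraries deviated from their group means with correlations of 0.20, -0.04, -0.04 and 0.07, and only 3 of 8 matched their own number best, which is no ground to treat them as pairs. Changes between replicates 1 and 2 correlated at 0.14 to 0.34 among lines, but nothing says that this number marks a shared batch. With the replicate number as a block, 920 genes were higher and 1046 lower, with 1 lower relative and 1 higher matrix partner. With line and replicate number as a block, 790 were higher and 891 lower, with 4 lower relatives, and Postn passed at -1.40. The block changed no other call of a member. Shares of reads in place of TPM gave Postn-204 54.53% in Fib-dZeb1 and 80.1% in Fib-Ctrl, and left the genotypes of Postn-204 and Tnc-203 without overlap.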
